A study of Homo sapiens with 2 samples.

Results

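The regions described here are the large clusters of KMT2D peaks in OCI-LY7. This established human line, labelled wild type, comes from a diffuse large B-cell lymphoma of the germinal centre (GCB) type. KMT2D (MLL4) was mapped by chromatin immunoprecipitation and sequencing (ChIP-seq) in 1 library, beside 1 input library made without antibody. Per the labels, the cells were fixed with 1% formaldehyde and precipitated with an antibody against the N-terminus of KMT2D. The same line gave both libraries, no other genotype or treatment was included, and no replicate spread could be estimated.

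Members were chosen by position alone. Peaks on chromosomes 1 to 22 were sorted, those separated by at most 12500 bp were joined, and joined groups of 10 or more peaks were kept. This gave 99 clusters with 1288 of the 24151 autosomal peaks, a share of 5.33% (exact binomial 95% interval 5.05 to 5.62%). They made up 99 of 4827 clusters of at least 2 peaks. The remaining peaks fell into 4728 clusters of 2 to 9, with 14045 peaks, and 8818 lone peaks. All positions are on hg19, as the list gives them. The number, span and spacing of the clusters follow from this choice and are given as a description. Intervals cover counting error over peaks or clusters only, which are not replicates.

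KMT2D is a large methyltransferase that places mono- and dimethyl marks on lysine 4 of histone H3, chiefly at enhancers, the distal elements that raise transcription of their target genes. It works in a complex with other subunits such as UTX, a demethylase of lysine 27, and is among the genes most often mutated in lymphomas of germinal centre origin. Long stretches with many neighbouring enhancer elements have been described in many cell types near genes of cell identity, and joining of nearby peaks is a common way to find them. The peak list holds no histone mark and no gene names. Whether the clusters are enhancers was therefore not tested, and no gene was assigned to them here.

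The clusters were mostly small members of a class with a long tail. The median cluster held 11 peaks (interquartile range 10 to 14) over 38.6 kb (29.1 to 50.5 kb). Of the 99, 73 held 10 to 13 peaks and 26 held 14 or more. In all, 6 had 20 or more peaks, and the largest had 35. Spans ran from 11.98 to 124 kb, and peaks covered a median of 22.97% of the span, with a range from 8.43 to 54.4%. Across the 99 clusters, span and number of peaks were correlated (Spearman 0.59, Pearson 0.67), which the rule itself favours because each further peak lengthens the region. Large clusters were thus not simply the longest ones, and the plot of peak number against span shows a wide scatter.

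**Figure D1:**
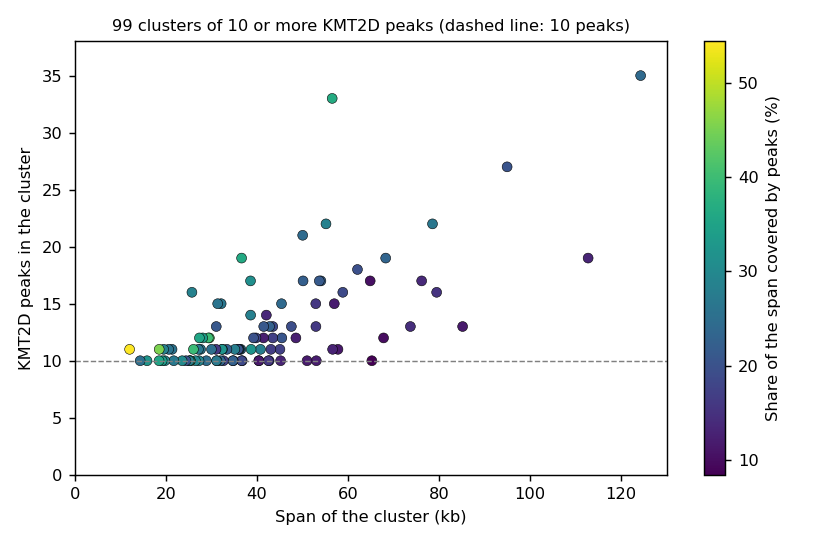
Number of KMT2D peaks (vertical axis) against the span in kb (horizontal axis) of the 99 clusters, each point 1 cluster, coloured by the share of its span in percent that peaks cover. Most clusters hold 10 to 13 peaks, and the cluster of 33 peaks spans 56.5 kb while another of 19 peaks spans 113 kb.

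Inside the clusters, peaks came in tight groups separated by longer stretches without a listed peak. Of 1189 gaps between successive peaks, 388 (32.6%; 29.97 to 35.4%) were under 500 bp and 244 (20.5%; 18.3 to 22.9%) were over 5 kb. The median gap was 1323 bp, with an interquartile range of 329 to 4085 bp. In clusters of 2 to 9 peaks the median gap was 1517 bp, 34.6% of gaps were under 500 bp and 26.8% were over 5 kb. The share of very short gaps thus differed little between large and small clusters, while long gaps took a smaller share in the large ones. No gap between listed peaks was shorter than 101 bp.

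Cutting each cluster at every gap of over 5 kb split the 99 clusters into 343 blocks, of which 117 were single peaks. Only 10 clusters were 1 uninterrupted block, 25 fell into 2 blocks, 24 into 3 and 40 into 4 or more. A block of at least 10 peaks remained in 23 clusters. When peaks under 500 bp apart were counted as 1, 35 clusters still held 10 or more. A median cluster counted this way held 8 separate groups, with a range of 3 to 21.

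Architecture differed strongly among the 10 clusters with the most peaks, which the map of their peaks shows to scale. On chromosome 1, the cluster of 35 peaks at 23851085 to 23975383 fell into 8 blocks, and the block with the most peaks, at 23917041 to 23947515, held 12 over 30.5 kb, of which they covered 37.8%. The first block, at 23851085 to 23858317, was more tightly packed, with 7 peaks over 7.23 kb and 86.8% covered. The block of 12 had a median height of 41 and contained the tallest peak, of height 107 (in the authors' units, as all heights here). Another block, at 23880359 to 23888834, held only 4 peaks but had the higher median, 64, and peaks covered 69.6% of it. The cluster also held 4 peaks wider than 2 kb, the most in any of the 99, at 23851085, 23884664, 23938135 and 23945303, with heights of 96, 86, 107 and 104.

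The chromosome 8 cluster of 33 peaks, at 11268984 to 11325485, was built differently. It had 3 blocks, and the last, at 11297077 to 11325485, held 21 peaks over 28.4 kb with a median height of 28. Its median gap was 299 bp, and 17 of its gaps were under 500 bp, the most in any of the 99 clusters. After those neighbours were counted together, 16 groups were left. Of its 33 peaks, 15 were below a height of 26, and its tallest peak reached 73. Peaks covered 36.6% of its span, and its largest stretch without one was 8836 bp. Its median height was 26, against 42 in the chromosome 1 cluster.

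On chromosome 17, at 75396427 to 75491377, 27 peaks formed 6 blocks, and 15 of them lay in 1 block of 32.4 kb at 75429999 to 75462352. The peak of height 174 lay in that block at 75436277 to 75438352 and was followed by one of height 119 at 75440797 to 75442911, both over 2 kb wide. The tallest stood 4.97 times above the median peak of its cluster. With 21 groups after joining of close neighbours, this cluster had the most separate groups of all 99. On chromosome 11, the cluster of 22 peaks at 67158716 to 67237267 contained the widest member peak of the whole set, 5591 bp at 67201221 to 67206812, with a height of 107. The second of its 5 blocks was a compact group of 7 peaks at 67168663 to 67178123, of which peaks covered 64.3%.

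The neighbouring pair on chromosome 12 lay 16.8 kb apart, just beyond the joining distance, and its 2 clusters contrasted. The first, at 113486754 to 113541894 with 22 peaks, had 17 of them in 1 block of 30.6 kb, heights from 22 to 122 and a median of 28.5. The second, at 113558742 to 113671498 with 19 peaks, was scattered over 10 blocks, the most of any cluster, with a median gap of 5777 bp and a median height of 46. Its tallest peak, of height 109 at 113645402 to 113647143, stood alone in its block. The second cluster thus held fewer and taller peaks over a longer span, 113 kb against 55.1 kb.

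Among the rest of the 10, the chromosome 11 cluster of 21 peaks at 64611852 to 64661872 had 14 in a block of 29.6 kb at 64626344 to 64655935, with a median height of 32.5. The cluster of 18 peaks on that chromosome, at 118739290 to 118801349, fell into 6 blocks, the fullest with 6 peaks at 118795335 to 118801349. The chromosome 9 cluster of 19 peaks at 123630803 to 123699065 had 5 blocks, and its middle block of 8 peaks at 123653916 to 123668355 reached a height of 66. The chromosome 19 cluster of 19 peaks at 1240185 to 1276776 was compact, with 3 blocks and a largest gap of 5549 bp. Its middle block, 8 peaks at 1259063 to 1270095, had a median height of 66 and was the strongest block of 8 or more peaks among these 10 clusters.

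**Figure D2:**
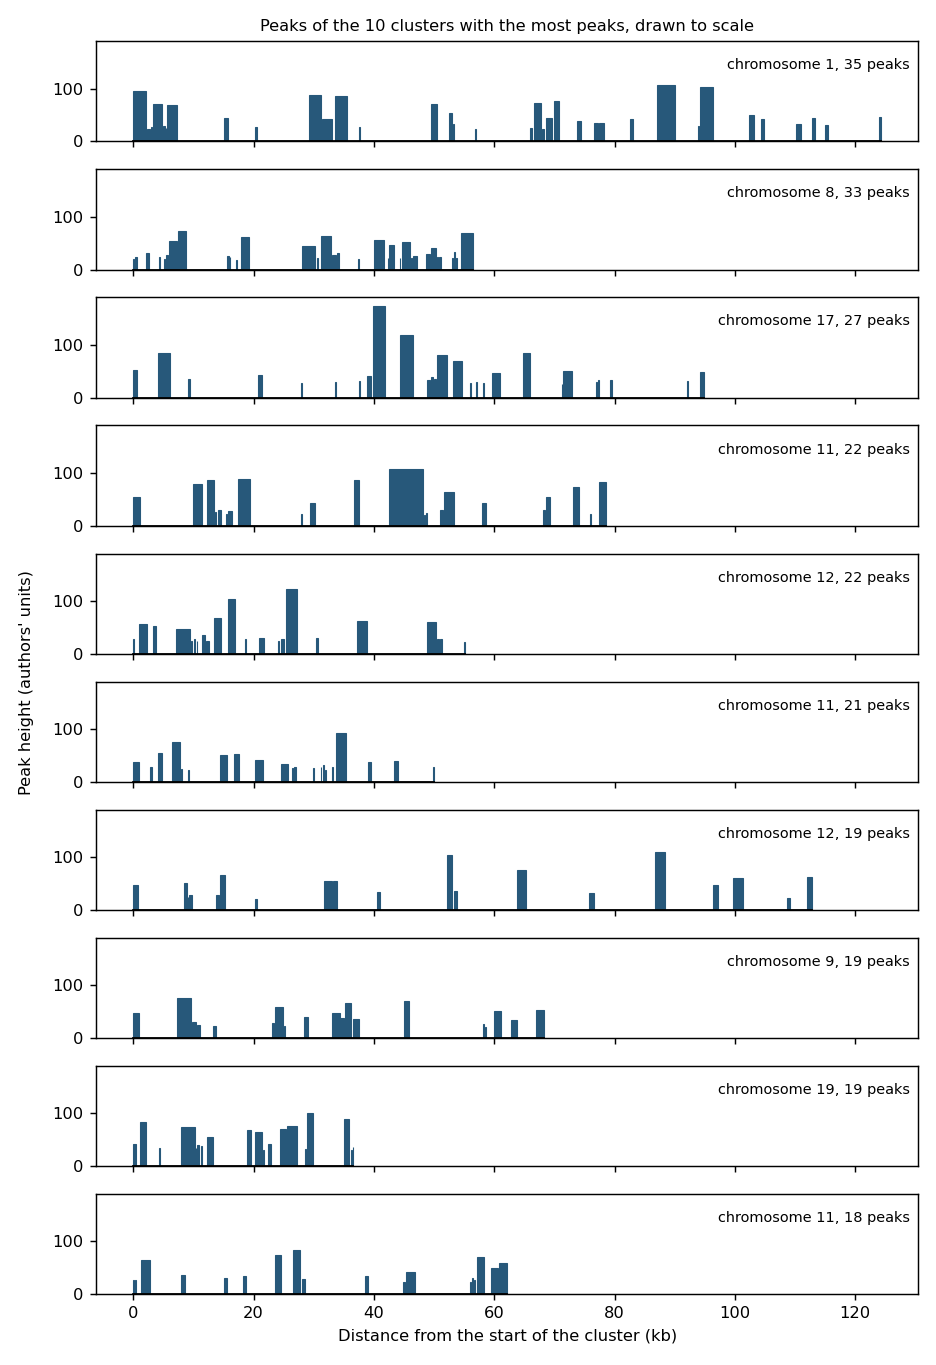
Each panel shows 1 of the 10 clusters with the most peaks. Bars are peaks drawn at their width, with distance from the start of the cluster in kb on the horizontal axis and height in the authors' units on the vertical axis. The chromosome 8 cluster of 33 peaks shows 3 blocks of mostly low peaks, and the second chromosome 12 cluster, of 19 peaks, is spread over 113 kb.

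The clusters ranked from the eleventh to the thirtieth by number of peaks held 13 to 17 peaks each. Of 6 clusters with 17 peaks, the one on chromosome 13 at 30944347 to 31020514 was the longest at 76.2 kb and depended most closely on the joining distance, since its largest gap was 12497 bp. Its peaks had a lowest height of 18, a median of 34 and a highest of 104. The chromosome 6 cluster at 2846663 to 2911517 was among the weakest, with heights from 19 to 58 around a median of 24, and peaks covered only 10.4% of its 64.9 kb. The chromosome 11 cluster at 65170928 to 65224948 contained a pair of wide peaks of equal height, 87, at 65184827 to 65187245 and 65188569 to 65191502. It was the 1 cluster in which the tallest height occurred more than once.

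The other 3 clusters of 17 peaks were alike in number and unlike in shape. One on chromosome 9 at 37369380 to 37423052 had a median height of 35 and a single peak of 131. A chromosome 3 cluster at 187650245 to 187700348 had 12 of its peaks in a block of 24.1 kb, and its tallest peak, of height 75, lay near the left end. On chromosome 2, the cluster at 8654727 to 8693281 had 16 of its 17 peaks in 1 block of 30.6 kb, where the median height was 25 and a peak of 86 stood at the right edge.

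Clusters of 16 peaks lay on chromosome 9 at 140117727 to 140197190 and at 134128176 to 134153849, and on chromosome 3 at 186703628 to 186762461. The first spread over 79.5 kb in 6 blocks, with heights from 20 to 90. The second packed its peaks into 25.7 kb, with 11 in a single block of 9.97 kb whose median height was 24. The last was even in height, from 19 to 59 around a median of 33. Of the 5 clusters with 15 peaks, 1 on chromosome 9 at 134600027 to 134631365 was a single block, with a largest gap of 3646 bp and heights from 20 to 64. Another on chromosome 9, at 130661030 to 130706394, held a peak of 3013 bp and height 84. On chromosome 7, the cluster at 101497061 to 101529158 had 13 of its 15 peaks within 18.0 kb. Both clusters of 15 on chromosome 3, at 183253822 to 183310786 and 14421263 to 14474158, had a median height of 25, with tallest peaks of 56 and 75.

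At 14 peaks, the chromosome 3 cluster at 53192814 to 53231391 reached 103 and kept 11 of its peaks in 1 block, whereas the chromosome 12 cluster at 58134925 to 58176954 reached 85 with peaks of up to 959 bp. Of the 8 clusters with 13 peaks, 4 complete this group. The one on chromosome 17 at 8041954 to 8127126 was a loose chain of 8 blocks over 85.2 kb with a median gap of 6703 bp. On chromosome 16, at 717779 to 791470, heights ran from 26 to 102 around a median of 63, the second highest median of all clusters. Both clusters of 13 on chromosome 1 had a tallest peak of over 3 times the median. At 226821886 to 226874811 it was 111 over a median of 35, and at 154908635 to 154956164 it was 118 over 32.

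The remaining 69 clusters, with 10 to 13 peaks, are given by chromosome. Chromosome 1 had 7 of them. The cluster at 31216376 to 31234859 was the second most densely covered of all 99, at 45.3% of 18.5 kb, and had a peak of 110 above a median of 27. The one at 156450399 to 156475697, covered at 41.3%, held peaks of 2958 and 2219 bp and reached 115 at its right end. The clusters at 32713630 to 32740076 and 203240172 to 203275287 reached 100 and 87, and the latter had the higher median, 50. Lower tallest peaks were seen at 9123040 to 9143605 (82), 1821253 to 1851224 (71) and 26632545 to 26648347 (48). In the last, 7 of the 9 gaps were under 500 bp, and only 3 separate groups were left after joining them.

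On chromosome 2, the cluster at 232526491 to 232552500 stood out by 3 peaks of height 100 or more, at 110, 122 and 117, the only cluster of the 99 with over 2 such peaks. A cluster at 96804653 to 96840629 had a low median, 24, but reached 100. The cluster at 233924413 to 233951988 reached 73 at its left end. The cluster at 89115410 to 89166389 had no gap under 500 bp and included a gap of 12467 bp, so a slightly shorter joining distance would have divided it. Peaks there ran from 17 to 78 in height.

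Chromosome 3 held the shortest and most densely covered cluster. At 187456690 to 187468668, 11 peaks lay within 11.98 kb and covered 54.4% of it, with a median gap of 176 bp, heights from 23 to 88 and a median of 30. Its 11 peaks made 4 separate groups. It lay 182 kb to the left of the cluster of 17 peaks at 187650245. The clusters at 13111001 to 13130142 and 133182383 to 133211243 held 10 peaks each and reached 102 and 62.

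Chromosome 4 had 1 cluster, at 25860960 to 25880425. Its tallest peak, 42, was the lowest of all, with heights from 16 around a median of 25. The other peaks of that chromosome had a median of 33, and heights are not strictly comparable between chromosomes. The tallest peak of the cluster was nonetheless wide, at 2442 bp. Chromosome 5 had 3. At 139012850 to 139051527 a peak of 4025 bp and height 135 closed the right end of the cluster, and a peak of 3061 bp and height 59 lay further left. The clusters at 176852584 to 176883766 and 177540063 to 177558519 had mostly short gaps, with medians of 296 and 242 bp, but largest gaps of 11331 and 8614 bp. With close neighbours counted together, they dropped to 3 and 4 separate groups. Chromosome 6 had, besides the weak cluster of 17 peaks, a cluster of 13 at 41975305 to 42018756, which reached 97 near its left end. Its other cluster, at 27774384 to 27806765, was the most even of all, with a tallest peak of 63 only 1.26 times its median of 50.

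On chromosome 7, 4 clusters lay in a row between 101497061 and 102105891, separated by 84.3, 277 and 114 kb. After the cluster of 15 peaks came one at 101613461 to 101638789 whose median was 24 and which held a peak of 3365 bp and height 108. The next, at 101915376 to 101951481, held a peak of 5011 bp, the second widest of all member peaks, with a height of 122, and another of 134 at its right edge. The fourth, at 102065135 to 102105891, had a higher median of 44 and a lower tallest peak of 80. Elsewhere on the chromosome, the cluster at 99812089 to 99826390 packed 10 peaks into 14.3 kb, and the cluster at 73620916 to 73669443 spread 12 over 48.5 kb. Their tallest peaks were 92 and 74.

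Chromosome 8 held the tallest member peak of the whole set, at 10847328 to 10849311. It reached 211 and was the 1 member listed at minus infinity in the column that holds a significance value. It belonged to a cluster of 10 peaks at 10822845 to 10857521 whose median height was 34, so that it stood 6.21 times above the median, the largest ratio among the 99. This cluster also sat at the edge of the rule, with a gap of 12328 bp inside it. On chromosome 9, the clusters at 117126746 to 117168204 and 130533510 to 130565800 shared a median of 31, with tallest peaks of 138 and 84. Chromosome 10 had clusters at 72237388 to 72274102 and 125824042 to 125866537, with tallest peaks of 70 and 59.

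Among the remaining clusters of chromosome 11, that at 65239075 to 65275688 began 14.1 kb after the cluster of 17 peaks at 65170928 and reached 96. The cluster at 67030098 to 67057207 lay 102 kb before the one of 22 peaks and reached 103. At 776670 to 820120, 12 peaks reached 110, and at 130023024 to 130059454, 11 peaks reached 77 with a median of 46. Chromosome 12 had a densely covered cluster at 122441388 to 122470664, where a peak of 3591 bp and height 127 lay at the left end, and a more even one at 122227100 to 122250627, from 24 to 72. On chromosome 13, the clusters at 46946336 to 46967636 and 52367954 to 52407169 reached 69 and 77. The second had no gap under 500 bp, so all 12 of its peaks were separate.

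Chromosome 14 had clusters at 23259192 to 23299572, with no gap under 500 bp, no peak wider than 795 bp and a tallest peak of 57, and at 91817607 to 91844933, with a tallest peak of 69. Chromosome 15 had 3. At 75063352 to 75092859, peaks of 4142 and 3628 bp raised the covered share to 42.7%, and the tallest peak was 126. The clusters at 31617611 to 31660259 and 67357429 to 67402443 reached 108 and 78. On chromosome 16, the cluster at 81830941 to 81871335 had no peak below 39 and a median of 58. The others on that chromosome, at 89032038 to 89060078 and 11758841 to 11783204, reached 126 and 78 from medians of 35 and 31.5.

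On chromosome 17, a cluster at 27046380 to 27077460 had a median of 54.5 and opened with a peak of 129. At 61996600 to 62032436 the tallest peak was 108 and a second one reached 101. A cluster at 76108698 to 76151441 held peaks of 2478 and 2030 bp and had a median of 48, and the clusters at 76705236 to 76736201 and 74256147 to 74275884 reached 78 and 87. Chromosome 20 had clusters at 37489408 to 37522774, 56025024 to 56070460 and 49407077 to 49438101, with tallest peaks of 130, 87 and 60. The chromosome 21 cluster at 45552960 to 45580198 reached 106. Of the clusters on chromosome 22, that at 39833623 to 39898846 was the most thinly covered of all, at 8.43% of 65.2 kb, and that at 42314183 to 42353920 reached 86.

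Chromosome 19 had 13 clusters, the most of any chromosome, and 6 of them lay between 1063053 and 2632079. Within this stretch the cluster of 19 peaks was the largest. Those at 1063053 to 1104459, 1647555 to 1672643 and 1848123 to 1905893 had tallest peaks of 123, 153 and 141. The clusters at 2446623 to 2491788 and 2610392 to 2632079 reached 95 and 119 and were 119 kb apart. A second pair, at 6501998 to 6536751 and 6564281 to 6607307, was separated by 27.5 kb and had similar medians of 59.5 and 52. The highest median of all, 75.5, was found at 56135349 to 56167286, where heights ran from 37 to 151. The others lay at 55624216 to 55692011, with a tallest peak of 115 at its right end, at 10330444 to 10363050 (110), at 45970806 to 46027402 (98) and at 18263184 to 18316203 (90). The lowest height listed on chromosome 19 was 26, against 15 on chromosomes 4 and 18, so heights are not strictly comparable between chromosomes.

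**Figure D3:**
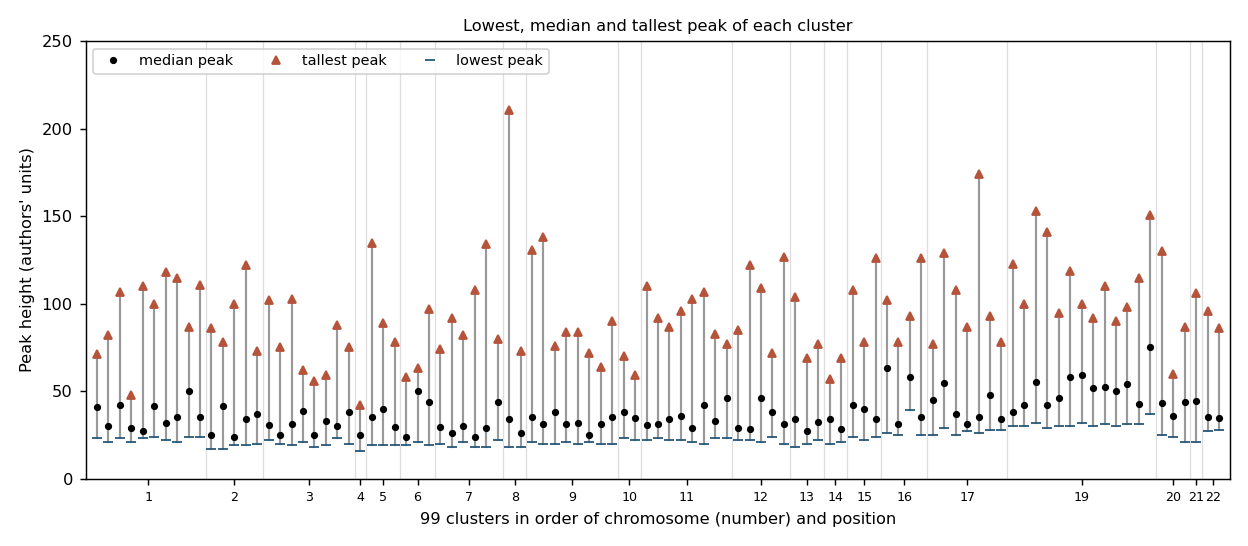
For each of the 99 clusters, in order of chromosome and position along the horizontal axis, the vertical line runs from the lowest to the tallest peak in the authors' height units. Dots are medians, triangles the tallest and dashes the lowest peaks. Medians lie between 24 and 75.5 and tallest peaks between 42 and 211.

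Clusters were not evenly shared among chromosomes, even relative to the number of peaks. On chromosome 9, 10.97% of listed peaks (122 of 1112; exact binomial 95% interval 9.19 to 12.96%) belonged to clusters of 10 or more. On chromosome 11 it was 9.41% (7.87 to 11.1%), on chromosome 19 9.30% (7.91 to 10.8%) and on chromosome 13 8.95% (6.47 to 11.99%). The share was 1.29% (0.645 to 2.30%) on chromosome 4 and 1.92% (1.18 to 2.95%) on chromosome 10. On chromosome 18, 0 of 359 peaks belonged to such a cluster, with an upper bound of 1.02%. Chromosome 13 thus combined few peaks with a share near that of chromosome 19. The lowest listed height differed, however, at 17 on chromosome 13, 18 on chromosome 9 and 26 on chromosome 19. Low peaks count towards the 10, so these shares are not strictly comparable between chromosomes. At a minimum height of 26, no chromosome 13 cluster overlapped one of 10 or more peaks. All those of chromosome 19, where this cut removes no peak, did. Peaks of 1 cluster enter together, so the true uncertainty of these shares is wider than the intervals.

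**Figure D4:**
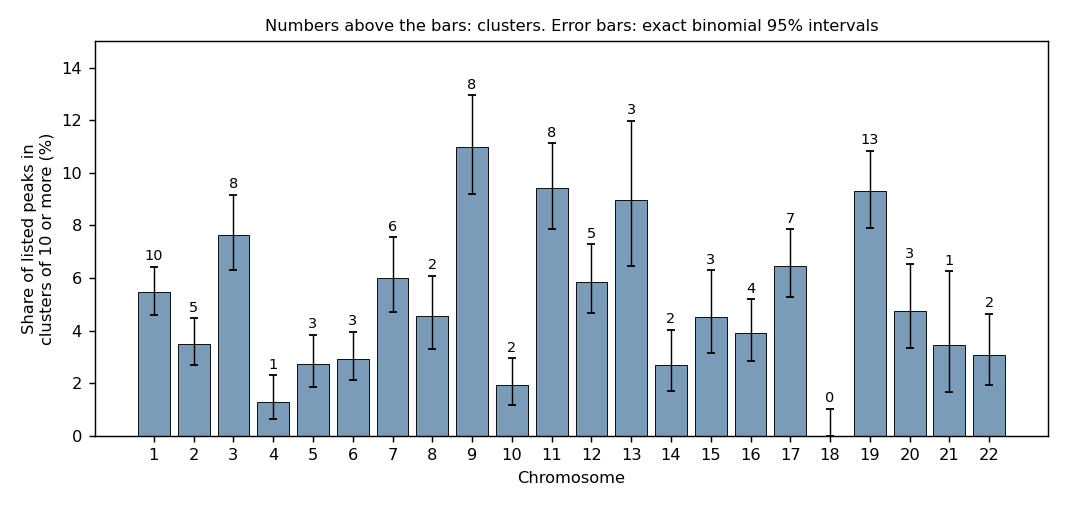
Share of the listed peaks of each autosome, in percent, that belong to clusters of 10 or more peaks. Error bars are exact binomial 95% intervals over peaks, and numbers above the bars are clusters. The highest bar is chromosome 9 at 10.97% and chromosome 18 has 0.

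Member peaks were not unusually strong. Height was not used to choose the members. The 1288 member peaks had a median height of 36 (interquartile range 27 to 57), against 35 (26 to 55) in clusters of 2 to 9 and 48 (32 to 66) for lone peaks. Heights of members ran from 16 to 211, and all groups overlapped widely. Median widths were 541 bp, 514 bp and 746 bp in the same order. The median score deposited by the authors was 22.7 for members, 22.8 for clusters of 2 to 9 and 28.0 for lone peaks. Heights of 100 or more occurred in 55 members, 4.27% (3.23 to 5.52%), against 3.46% (3.16 to 3.78%) in clusters of 2 to 9 and 5.45% (4.99 to 5.95%) among lone peaks. Both other shares, and the 4.23% of all autosomal peaks, lay inside the members' interval. Peaks below 26 made up 21.97% of members (19.7 to 24.3%), against 22.9% (22.2 to 23.6%) and 13.4% (12.7 to 14.1%) in the same order and 19.4% of all. Narrow peaks, of at most 200 bp, were 24.1% of the members (21.8 to 26.5%), against 25.8% (25.1 to 26.5%) and 12.96% (12.3 to 13.7%), and 21.0% of all. For low and for narrow peaks, the members' interval overlapped that of small clusters and lay above that of lone peaks.

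The lower height of members than of lone peaks was seen on each of the 21 chromosomes with a cluster. The difference of medians there ranged from -20.5 on chromosome 4 to -1.5 on chromosome 21, with a median of -14. Against peaks in clusters of 2 to 9 on the same chromosome, members were higher on 11 chromosomes, lower on 9 and equal on 1, with a median difference of 0.5. Of the 99 clusters, 68 had a median height below that of the other peaks of their chromosome, 29 above and 2 equal. Across clusters, the median height was correlated with that of the other peaks of the same chromosome (Spearman 0.54, Pearson 0.62). Clusters on 1 chromosome share the same lowest listed height and the same reference value, so these points are not independent.

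Height within clusters was lowest beside the closest neighbours and highest far from other peaks, without a steady rise between. The 437 members with a neighbour within 250 bp had a median height of 31 and a median width of 337 bp. The 117 members whose nearest peak was over 5 kb away had a median height of 46 and a median width of 626 bp. In clusters of 2 to 9 the same 2 medians of height were 30 and 45. Members with the nearest peak 250 to 500 bp away had a median of 36. In the next classes, up to 1000, 2500 and 5000 bp, the members' medians were 41.5, 39 and 40. The distance classes pool chromosomes, between which heights are not strictly comparable. Members without another peak under 500 bp away, 641 in all, had a median height of 40, against 41 in clusters of 2 to 9 and 48 for lone peaks, so the gap to lone peaks narrowed from 12 to 8. At a common minimum height of 26 it was 9, with medians of 43 and 52.

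**Figure D5:**
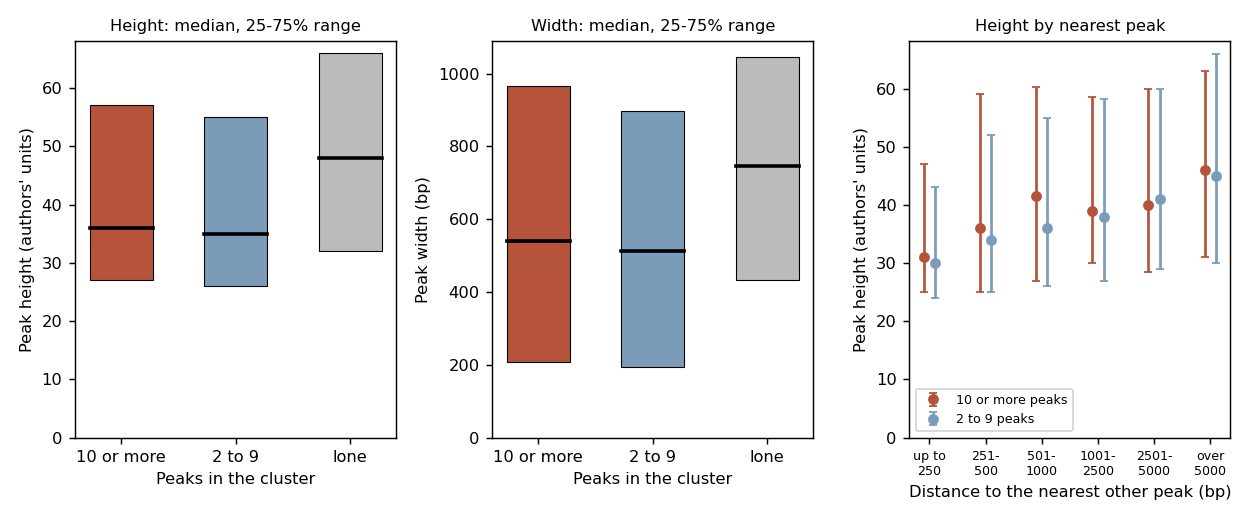
Left and middle, boxes from the 25th to the 75th percentile with the median as a line, for height in the authors' units and width in bp of peaks in clusters of 10 or more, in clusters of 2 to 9 and of lone peaks. Right, median height with its 25th to 75th percentile range against distance in bp to the nearest other peak. Large and small clusters follow almost the same course, and lone peaks are taller, at a median of 48 against 36 and 35.

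Heights of successive peaks in a cluster were nearly unrelated. For the 388 pairs under 500 bp apart the Spearman correlation between left and right height was -0.017, for the 557 pairs from 500 bp to 5 kb it was 0.079 and for the 244 pairs over 5 kb it was 0.032. Successive pairs share peaks, and the values describe this list only. Among the closest pairs, the taller peak was a median of 1.58 times as high as the shorter, and 35.8% differed at least 2-fold. In clusters of 2 to 9, 28.6% of such pairs did. This contrast was not seen at longer gaps. From 500 bp to 5 kb the shares were 33.2% in large and 31.5% in small clusters, and over 5 kb they were 31.1 and 32.0%. The correlations compare successive peaks only, and a rise or fall of height along a cluster was not tested.

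The height of the tallest peak relative to the median peak varied widely among clusters. Tallest peaks ranged from 42 to 211 with a median of 92, and held a median of 16.4% of the summed height of their cluster. The tallest was under 2 times the median peak in 27 clusters, 2 to 3 times in 44 and 3 or more times in 28, of which 9 reached 4 times. It was also the widest peak in 37 clusters. Its place varied over the whole span, and it was the first or last peak in 18 clusters (18.2%; 11.1 to 27.2%), while first and last peaks made up 15.4% of all members. Number of peaks and tallest height were nearly unrelated across the 99, with a Spearman correlation of -0.045 and Pearson's at 0.029. This holds only above the cut at 10 peaks. The median tallest height was 50 in clusters of 2, 59 in those of 3 or 4 and 72 in those of 5 or 6. It was 82 at 7 to 9 peaks, 95 at 10 to 13 and 85.5 at 14 or more. Across the 99, number of peaks and median height had a Spearman correlation of -0.25. The 55 members of height 100 or more were spread over 41 clusters, of which 28 held 1 and 12 held 2.

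Wide peaks took a larger share of the members than of the full list. Of 1288 members, 49 were wider than 2 kb, 3.80% (2.83 to 4.999%), against 2.24% of all autosomal peaks, 2.24% (2.00 to 2.49%) in clusters of 2 to 9 and 2.03% (1.75 to 2.35%) among lone peaks. The share was not particular to clusters of 10 or more, however. It was 1.53% in clusters of 2, 1.98% in clusters of 3 or 4, 3.33% in clusters of 5 or 6, 3.65% in clusters of 7 to 9, 4.13% in clusters of 10 to 13 and 3.28% in those of 14 or more. The 49 wide members lay in 35 clusters, and 12 clusters held more than 1. Their heights ran from 42 to 174 with a median of 87, and 23 of them had the tallest height of their cluster. Wide lone peaks had a median height of 71. At matched heights of 80 to 119, the share over 2 kb was 18.9% of 111 members, 10.7% of 1024 peaks in clusters of 2 to 9 and 5.77% of 1006 lone peaks. The order was not the same at lower heights. At 60 to 79 the shares were 7.41, 5.58 and 4.15%, at 50 to 59 they were 2.63, 4.65 and 2.61%, and at 40 to 49 they were 3.07, 1.18 and 0.656%. Below a height of 40, from 20 upwards, 0 members were that wide.

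The authors' significance value at matched height differed slightly between the groups. For heights of 40 to 49 its median was -30.1 in members, -31.0 in clusters of 2 to 9 and -32.0 for lone peaks, and for heights of 80 to 119 it was -61.8, -62.4 and -65.0. Members were thus listed with weaker significance at the same height in both bands. The bands pool chromosomes, between which heights are not strictly comparable. Chromosome 19, with a lowest listed height of 26, held 146 of the 1288 members and 1570 of all 24151 peaks. Whether the difference holds within chromosomes was not tested. How the input or local background entered this value is not given in the sources used here.

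Clusters lay in neighbourhoods rich in further peaks. In the 100 kb beyond the joining distance on each side, a cluster of 10 or more had a median of 8 other peaks (interquartile range 6 to 12, highest 33), a cluster of 2 to 9 had 5 (2 to 8) and a lone peak had 3 (1 to 6). No peak was found there for 1 of the 99 clusters, the chromosome 13 cluster at 52367954, against 9.58% of clusters of 2 to 9 and 18.3% of lone peaks. The median of clusters exceeded that of lone peaks on 19 of 21 chromosomes and equalled it on chromosomes 4 and 13. The richest surroundings, with 33 peaks, belonged to the chromosome 11 cluster at 65239075, which borders the cluster of 17 peaks at 65170928. From the edge of a cluster the next peak was a median of 25.3 kb away, against 46.4 kb for clusters of 2 to 9 and 72.6 kb for lone peaks. Flanking counts share a chromosome and local density with the rule and are given without a test.

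A minority of clusters lay near another one. Of 78 pairs of successive clusters on a chromosome, 2 were at most 25 kb apart, 5 at most 100 kb and 17 at most 500 kb, and 30 clusters had another within 500 kb. The closest pairs were on chromosome 11 (14.1 kb), chromosome 12 (16.8 kb) and chromosome 19 (27.5 kb). A longer joining distance merges such neighbours, and a shorter one divides many clusters.

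Clusters on both sides of the threshold of 10 peaks were alike in span and tallest height and differed in covered share. The 30 clusters of exactly 10 peaks had a median span of 31.1 kb, a median tallest height of 95.5 and a median covered share of 23.6%. The 40 clusters of 9 just outside had 32.0 kb, 93 and 18.5%. The covered share was 19.9% in the 72 clusters of 8 and 25.9% in the 24 clusters of 11. It was 20.9% in clusters of 12 or more, so it did not rise steadily with the number of peaks. The longest of those with 9 lay on chromosome 19 at 10654315 to 10715383 (61.1 kb) and on chromosome 16 at 30381379 to 30441970 (60.6 kb), with tallest peaks of 93 and 79. For the joining distance, 12 of the 99 clusters contained a gap of over 12 kb, and 6 of 198 flanks had their next peak under 13 kb away. Of the 99, 50 still overlapped a cluster of 10 or more at a minimum height of 26. In 22 of these no peak lay below 26, so the height cut could not change them. They included all 13 clusters of chromosome 19. After close peaks were merged 35 still overlapped one, at a joining distance of 5 kb 23 did, and 2 did when only the higher-scoring 50% was used.

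Against these 4 stricter settings, 0 clusters were found again in all, 11 in 3, 20 in 2, 37 in 1 and 31 in 0. For the 22 clusters with no peak below 26, meeting the height setting was fixed in advance. The 11 included the clusters of 35 peaks on chromosome 1, 33 on chromosome 8, 27 on chromosome 17, 19 on chromosome 19, 22 on chromosome 12 and 22 and 21 on chromosome 11. The other 4 were those of 17 and 14 peaks on chromosome 3 at 187650245 and 53192814, and those of 15 peaks on chromosome 7 at 101497061 and chromosome 9 at 134600027. Only the chromosome 11 cluster of 22 peaks and the chromosome 19 cluster of 19 kept 10 or more peaks among the highest-scoring 50%.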

How the data were processed

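KMT2D ChIP-seq of OCI-LY7 cells was deposited as 1 peak list with 11 columns and no header. Column meanings were read from the values. The submitters' processing notes name CASAVA 1.8.2 and the build hg19. Aligner, peak caller and threshold were not given in the sources used here, nor was the role of the input. The authors deposited a signal per peak, called height here, whose normalization is not stated, 2 score columns (a significance value of at most -15.0002 and a positive score) and the position of the highest point in percent of the peak's width. These are the authors' own values and rank peaks within this list only. Depth is unknown, and the input library was not analysed here.

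Peaks of chromosomes 1 to 22 were joined at gaps of up to 12.5 kb. Gene, promoter and motif analyses had been planned and were not run, because no hg19 annotation or sequence was used here. By the rule for named clusters, the 30 with the most peaks, and the 5 most densely covered, 5 longest, 5 tallest and 5 highest in median, get more values than the others, which are given by position and tallest peak. Whether positions count from 0 or 1 is not stated. Members, thresholds and lists were chosen with earlier results of these data known. With 1 library no test was made. Shares have exact binomial 95% intervals. Alternatives were other joining distances, peak minimums, score and height cuts, merging and chromosome X. Stitching was tested on simulated data. Software was Python 3.11.15 with scipy 1.17.1, pandas 2.3.3, matplotlib 3.10.9 and numpy 2.4.6.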

Additional observations from a re-analysis of the deposited data

How the results depend on the processing

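With 1 library, a value counted as moved when it left the 95% counting interval of the main setting or, for a count, changed over 1.5 times. For a difference of medians, the bounds came from the interval limits of the 2 medians and are not themselves a 95% interval. Of 52 alternative values, 36 moved and 16 stayed. Only the differences in median height could be counted as changed in direction, and 0 of them were. Joining at 5 kb gave 23 clusters, 283 peaks, a median span of 22.7 kb, covered share of 35.4%, height of 31 and width of 455 bp. At 25 kb these were 262, 3714, 76.3 kb, 12.3% and 38. Merging of peaks under 500 bp apart gave 35 clusters, 436 peaks, 54.0 kb, a height of 41 and 743 bp. The highest-scoring 50% gave 2, 23, 57.2 kb, 27.8%, 73 and 1046 bp, and a minimum height of 26 gave 51, 623, 43.0 kb, 43 and 667 bp. A minimum of 8 peaks gave 211 clusters, 2224 peaks and 32.3 kb, and one of 12 gave 45, 724 and 48.5 kb. Chromosome X moved none of these values over its bound. Fewer peaks, and taller ones where scores or heights were cut, follow from construction. Otherwise, as for the lower height at 5 kb, the cause was not tested. The height of members without a peak under 500 bp away was 40. The difference in median height between members and lone peaks was -12 over all peaks, -8 without close neighbours and -9 at the minimum height, both chosen after seeing the data. The difference from all other peaks was -4, and -4.5 as the median within chromosomes. Single chromosomes ran from -10.5 to 7.5, and members were taller than the other peaks on chromosomes 16 and 21. Alternatives on gene starts and motifs were not run. No paired analysis was possible because the result comes from no test. Depth is unknown, so stretches with no listed peak may still be bound.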
